A study of Homo sapiens with 6 samples.

Results

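HOX genes and the host genes of small nucleolar RNAs (snoRNAs) were followed in RNA sequencing of 12Z cells, an immortalised human epithelial line derived from an endometriosis lesion. Members were taken by symbol from the gene models of GENCODE release 29. HOX symbols of the A, B, C and D clusters matched 40 gene identifiers (39 symbols), and SNHG symbols with GAS5 and ZFAS1 matched 27 identifiers (26 symbols), of 58336 identifiers in all. Both groups of 12Z cells received 50 nM siRNA: the siBRG1 group (n = 3) an siRNA against SMARCA4, the control group (n = 3) a non-targeting siRNA. RNA was taken at 72 h from cells whose medium had been lowered from 10% to 0.5% serum at 48 h. The labels' extraction text also speaks of drug or vehicle exposure, but names no such agent for any of these libraries. All libraries came from 1 cell line, and the labels do not say whether replicates were separate cultures, so the p-values below measure only the spread between these libraries. Only the controls are marked as taken over from a previous series, so series of origin and siRNA cannot be told apart.

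BRG1, the product of SMARCA4, is one of the alternative ATPases with which SWI/SNF complexes move nucleosomes. HOX proteins are homeodomain transcription factors that give cells along the body axis their positional identity. Their genes lie in clusters, in an order that follows the axis, and those of the posterior HOXA cluster pattern the Mullerian duct into oviduct, uterus, cervix and upper vagina. The 4 clusters arose by duplication, so genes with the same number in different clusters are paralogs. SNHG genes are a contrast of another kind: their spliced RNA is made from a transcript whose introns carry snoRNAs, which guide the modification of ribosomal and other RNA. Many of these spliced host RNAs are short-lived, since they hold early stop codons that lead to nonsense-mediated decay.

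SMARCA4 itself, at chr19:10960825-11079426 (GRCh38), measured 60.5, 78.9 and 50.6 CPM in the siBRG1 libraries and 244, 266 and 262 CPM in the controls. Every siBRG1 library was below every control library (log2 fold change -2.03 with SE 0.161 and adjusted p = 0.000267). CPM here are counts on the gene's strand relative to a library's counts over the genes tested, in the usual unit, scaled by TMM, and a call is an adjusted p under 0.05 in edgeR's quasi-likelihood test over 15830 genes. SMARCA2, the gene of the other SWI/SNF ATPase, was not called and averaged 53.4 ± 6.84 CPM in siBRG1 and 51.98 ± 1.41 CPM in control (SD, n = 3). Gene-assigned counts ranged from 12391161 to 13369692 in siBRG1 and from 40228678 to 49720320 in control, so that the siBRG1 libraries were the shallower. A count of 3 stood for 0.230 ± 0.00970 CPM in siBRG1 and 0.0709 ± 0.00800 CPM in control (SD, n = 3). Reads on no annotated feature took 3.97 ± 0.194% of the reads in siBRG1 libraries and 13.3 ± 0.415% in control, and reads at several places 20.3 ± 1.62% and 9.81 ± 0.224%. Neither pair of ranges overlapped (exact two-sided permutation test, p = 0.1, the smallest that 3 against 3 libraries allow), and the part of these shares in the results below was not tested.

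The labelled cell type was compared with marker genes. KRT8, KRT18 and KRT19, keratins of simple epithelia, were abundant in all libraries, with 1296 ± 92.96 CPM in siBRG1 and 1343 ± 22.9 CPM in control for KRT18 (SD, n = 3). EPCAM and CDH1, which mark epithelial junctions, were low, EPCAM at 1.61 ± 0.264 CPM in siBRG1 and 0.251 ± 0.0889 CPM in control. Of the 7 epithelial markers, 3 were called higher and 2 lower, where 36.1% and 36.5% of all genes tested were. Their log2 fold changes ran from -2.40 to 2.63, with 1 marker at least 2-fold lower and 1 at least 2-fold higher. They summed to 3939.5 to 4025 CPM in control and 3482 to 3737 CPM in siBRG1. Of 7 markers of endometrial stromal fibroblasts, 6 were higher and 1 lower in siBRG1, and their summed level was 2676 to 2859 CPM in control and 4957 to 5274 CPM in siBRG1. Endothelial PECAM1 had 2 counts in each group and TEK 3 in siBRG1 and 4 in control, and T cell CD3E had 0. The summed endothelial markers came to 17.4 to 20.1 CPM in control and 15.1 to 21.3 CPM in siBRG1, most of it KDR, while the 6 immune markers summed to 4.10 to 5.50 CPM in control and 9.91 to 10.6 CPM in siBRG1, most of it CD14. The part of these markers in the HOX and SNHG results was not tested.

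Homeodomains read DNA with a helix that is almost the same in all HOX proteins. The DNA-reading parts of 2 pairs of paralogs whose RNA was called in opposite directions are shown. In each pair 1 call, that of HOXB9 or HOXA13, was lost under some other ways of processing, as given below. Each homeobox was located by the residues WFQNRR at codons 48 to 53, so these codons encode the same residues in every line by choice. The lines give codons 42 to 53 of the homeobox from GENCODE 29 transcripts (GRCh38), 5′ to 3′, with codons 48 to 53, the core of the DNA-contacting helix, in capitals.
HOXB9: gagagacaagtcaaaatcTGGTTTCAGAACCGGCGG
HOXC9: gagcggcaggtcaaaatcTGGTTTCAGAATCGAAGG
HOXA13: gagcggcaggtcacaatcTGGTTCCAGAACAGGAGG
HOXB13: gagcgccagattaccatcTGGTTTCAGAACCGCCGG
Over the 180 bases of the whole homeobox, HOXB9 and HOXC9 shared 82.2% of bases and HOXA13 and HOXB13 69.4%. Among all 39 HOX genes the median identity was 81.7% over the 42 pairs of the same number and 60.6% over the other 699 pairs. HOXA13 and HOXB13 were the least alike of the 42 pairs.

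Of the 40 HOX identifiers, 33 passed the count filter, and 23 of them were called: 11 higher in siBRG1 and 12 lower. Over all genes tested, 72.6% were called, 36.1% higher and 36.5% lower, and the share of HOX genes called was near that of all genes. With at least 2-fold change, 1 HOX gene was higher (HOXD8) and 3 were lower (HOXA3, HOXA4 and HOXC5), where 10.4% and 11.1% of all genes were. The median log2 fold change was -0.07 over the HOX genes tested and -0.01 over all genes tested. Summed over every HOX gene, the level was 567, 506 and 547 CPM in siBRG1 and 529, 539.7 and 528 CPM in control, so the groups overlapped. Direction differed by cluster in these counts. HOXA genes had 1 call higher and 7 lower of 11 tested, HOXB genes 7 higher and 0 lower of 9, HOXC genes 1 higher and 5 lower of 9, and HOXD genes 2 higher and 0 lower of 4. The lower counts of HOXB and HOXD were also 0 at an unadjusted p under 0.05 in edgeR and with DESeq2. The clusters were not tested against each other, and since genes of a cluster lie side by side they are not independent of one another. In bulk RNA, fewer cells that express a gene and less RNA per cell cannot be told apart.

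**Figure D1:**
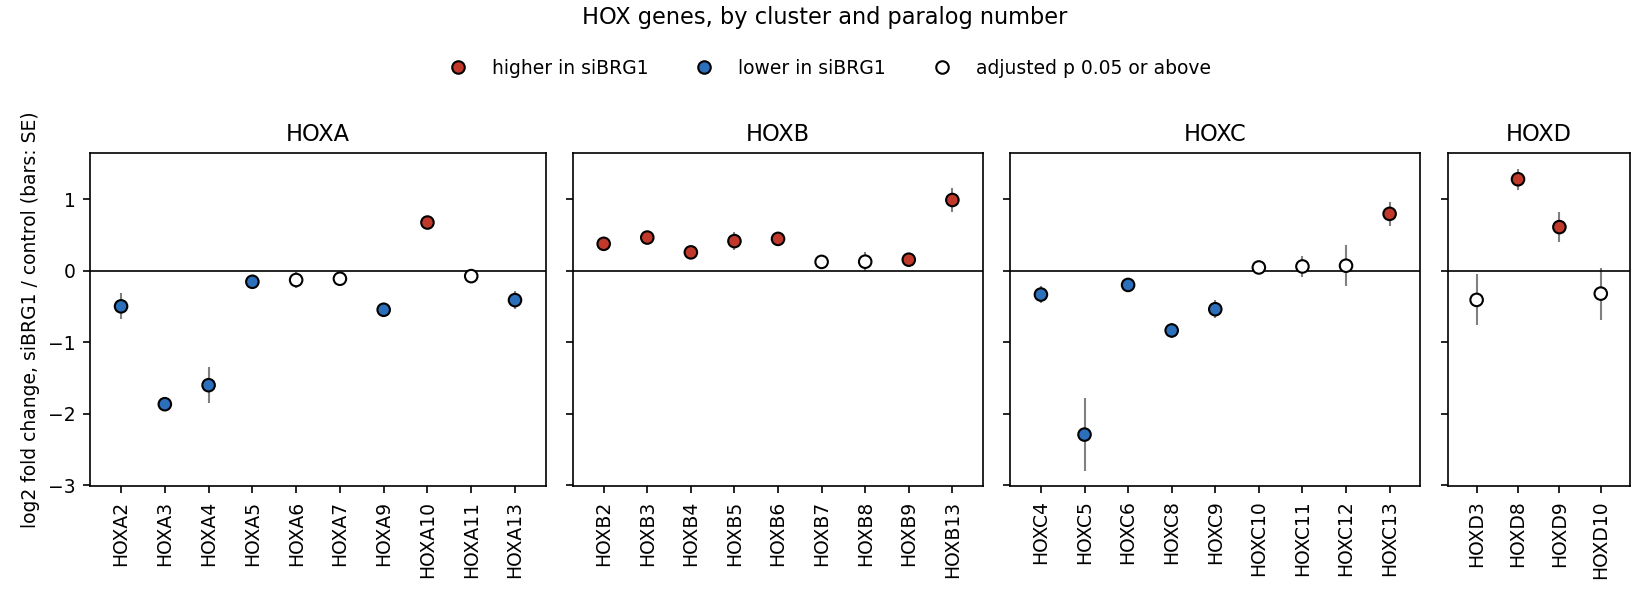
Log2 fold change of siBRG1 over control (vertical axis; bars are SE) for HOX genes tested and reported here, in 4 panels by cluster and ordered by paralog number; filled red points are called higher, blue lower, and open points have an adjusted p of 0.05 or above. Most HOXA points lie below 0 with HOXA3 at -1.87 the lowest, all HOXB points lie above 0, and HOXD8 at 1.28 is the highest point.

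Grouped by position along the clusters, calls went both ways in each group, where 36.1% of all genes tested were higher and 36.5% lower. Of the anterior genes with numbers 1 to 3, 2 were called higher and 3 lower of 6 tested. In the central groups 4 to 8 the calls were 4 higher and 6 lower of 14, and in the posterior groups 9 to 13 they were 5 higher and 3 lower of 13. The medians were -0.45, -0.12 and 0.06 in this order. Summed levels of the anterior genes were 119 ± 9.37 CPM in siBRG1 and 117 ± 2.37 CPM in control (SD, n = 3), and those of the posterior genes 207 ± 8.12 and 201 ± 2.89 CPM.

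The HOXA cluster lies on chromosome 7, on the minus strand, with HOXA13 (chr7:27193503-27200106) at its posterior end. Its 11 genes summed to 182, 169 and 179 CPM in siBRG1 and 222, 212 and 205 CPM in control, so that all siBRG1 libraries were below the controls. HOXA3, at chr7:27106184-27152581, which patterns the pharyngeal arches that give rise to thymus and parathyroid, had the largest fall of the cluster. It measured 8.23, 7.21 and 7.45 CPM in the siBRG1 libraries and 29.5, 27.99 and 26.1 CPM in the controls. The siBRG1 libraries lay close together and 3.65-fold below the controls (log2 fold change -1.87 with SE 0.0972 and adjusted p = 3.51e-16). Other models on the same strand share 9.24% of the exonic bases of HOXA3. HOXA4, at chr7:27128507-27130799, an anterior to central gene that lies inside the span of HOXA3, had 1.17, 1.02 and 0.784 CPM in the siBRG1 libraries and 3.21, 2.80 and 3.03 CPM in the controls. No siBRG1 library reached the lowest control (log2 fold change -1.60 with SE 0.256 and adjusted p = 2.78e-06). It rested on 39 counts in siBRG1 and 388 in control, and 31.0% of its exonic bases are shared with another gene model on the same strand, where reads count for neither gene. With counts taken from both strands the call was lost (log2 fold change -0.54, adjusted p = 0.273).

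HOXA10, at chr7:27170591-27180261, which specifies the uterus and is induced in endometrium by progesterone, was the only HOXA gene called higher by the stranded counts. Its levels were 38.98, 39.5 and 35.1 CPM in the siBRG1 libraries and 24.6, 23.5 and 22.9 CPM in the controls. Each siBRG1 library exceeded each control library (log2 fold change 0.68 with SE 0.0690 and adjusted p = 8.65e-10), a 1.60-fold rise. Its neighbour HOXA9, at chr7:27162435-27175180, the oviduct member of the Mullerian series, was lower with 32.7 ± 2.35 CPM in siBRG1 and 47.8 ± 2.55 CPM in control (log2 fold change -0.55 with SE 0.0659 and adjusted p = 2.28e-08). The models of HOXA9 and HOXA10 overlap on the same strand, with 15.9% and 9.93% of their exonic bases shared with other models. HOXA11, the gene of the lower uterus and cervix, was not called at 18.2 ± 3.19 CPM in siBRG1 and 19.2 ± 0.833 CPM in control, a log2 fold change of -0.07. HOXA13, of the vaginal and distal limb domain, was lower with 6.75 ± 0.675 CPM in siBRG1 and 8.93 ± 0.917 CPM in control (log2 fold change -0.41 with SE 0.131 and adjusted p = 0.00653). That call was ended by 2 alternatives, among them leaving out siBRG1 replicate 1 (adjusted p = 0.0504), and the largest adjusted p was 0.0576.

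HOXA5, at chr7:27141052-27143668, which shapes the lung and the cervical and thoracic skeleton, was the highest HOXA gene per exon length, at 22.1 ± 0.954 CPM per kb in control and 19.9 ± 0.773 in siBRG1 (SD, n = 3). It measured 33.4, 33.1 and 35.5 CPM in the siBRG1 libraries and 39.6, 37.4 and 36.4 CPM in the controls. The groups did not overlap, but the change was small (log2 fold change -0.15 with SE 0.0643 and adjusted p = 0.0342), and 7 alternatives ended the call, 3 of which left out siBRG1 replicate 1, siBRG1 replicate 2 or control replicate 1. HOXA2, which sets the identity of the second pharyngeal arch, averaged 3.58 ± 1.06 CPM in siBRG1 and 5.06 ± 0.191 CPM in control. It was called lower, with a log2 fold change of -0.50, a call that 2 alternatives ended. Leaving out siBRG1 replicate 2 was among them (-0.27, adjusted p = 0.173). HOXA6 averaged 8.58 ± 0.780 CPM in siBRG1 and 9.39 ± 0.272 CPM in control and HOXA7 20.1 ± 0.513 CPM in siBRG1 and 21.7 ± 0.553 CPM in control. Neither was called, although in both all siBRG1 libraries were below all controls. In all, 9 HOXA genes had non-overlapping lower values, where 37.6% of all genes tested did. Counts from both strands gave HOXA7 a log2 fold change of 0.68 (adjusted p = 0.000254), and 62.5% of its exonic bases carry an annotated exon on the opposite strand.

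**Figure D2:**
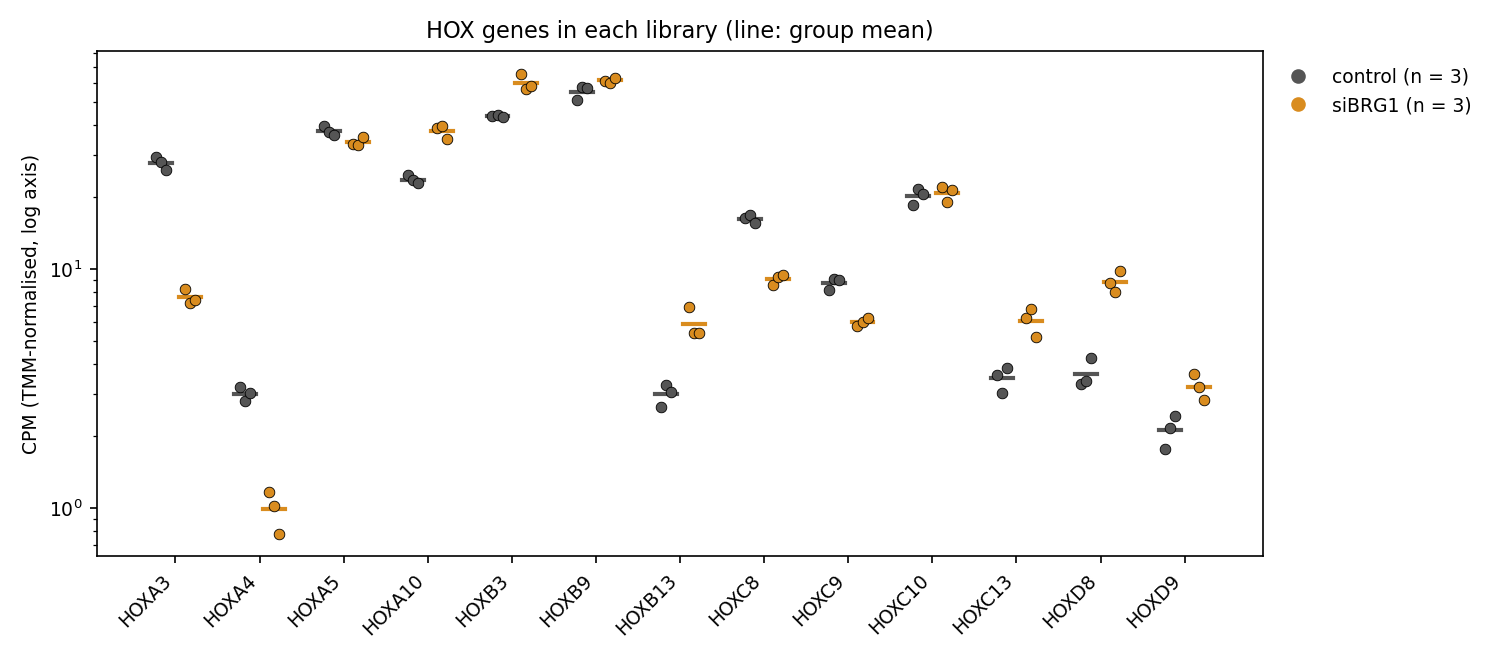
Level of 13 HOX genes in each library (points; CPM on a log axis) with group means as lines, grey for control and orange for siBRG1. The groups are far apart for HOXA3, HOXA4 and HOXD8, and they mix for HOXC10.

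The HOXB cluster lies on chromosome 17, from HOXB1 (chr17:48528526-48531001) to HOXB13 (chr17:48724763-48729178), on the minus strand. Its genes summed to 283, 248 and 274 CPM in siBRG1 and 209, 222 and 220.0 CPM in control, with no overlap. HOXB13, a posterior gene best known in prostate, where it partners the androgen receptor, lies apart from the rest of its cluster and had the largest rise. It measured 6.92, 5.41 and 5.41 CPM in the siBRG1 libraries and 2.66, 3.26 and 3.06 CPM in the controls. The lowest siBRG1 library was above the highest control (log2 fold change 0.99 with SE 0.169 and adjusted p = 7.22e-06). HOXB3, at chr17:48548870-48604912, a hindbrain and pharyngeal gene, had 65.6, 56.8 and 58.2 CPM in the siBRG1 libraries and 43.8, 43.9 and 43.2 CPM in the controls. The controls were nearly equal and all siBRG1 libraries lay above them (log2 fold change 0.47 with SE 0.0582 and adjusted p = 4.17e-08). Its paralog HOXA3 was called lower.

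HOXB9, at chr17:48621159-48626356, a gene of thoracic segments, was the highest HOXB gene per exon length, at 21.4 ± 1.52 CPM per kb in control and 23.8 ± 0.520 in siBRG1 (SD, n = 3). It measured 61.4, 60.1 and 62.8 CPM in the siBRG1 libraries and 50.7, 57.8 and 57.2 CPM in the controls. The groups came close without overlapping (log2 fold change 0.16 with SE 0.0576 and adjusted p = 0.0173). That call was lost when counts were corrected for GC content and length (-0.03), without control replicate 1 (0.08) and in 4 other settings. HOXB2, a hindbrain gene, averaged 40.02 ± 6.04 CPM in siBRG1 and 30.8 ± 1.32 CPM in control; HOXB4, known for expanding blood stem cells, 27.1 ± 3.77 CPM in siBRG1 and 22.7 ± 0.867 CPM in control; and HOXB5 9.80 ± 1.58 CPM in siBRG1 and 7.37 ± 0.842 CPM in control. All of them were called higher, with log2 fold changes of 0.38, 0.26 and 0.42. Correction for GC content and length left 3 HOXB genes called (HOXB3, HOXB6 and HOXB13), with HOXB2 at 0.16, HOXB4 at 0.05 and HOXB5 at 0.23. HOXB4 and HOXB5 overlapped between groups, and without siBRG1 replicate 1, the highest library for both, they were not called (adjusted p = 0.123 and 0.0716). HOXB6 was higher with 23.1 ± 1.81 CPM in siBRG1 and 16.97 ± 0.425 CPM in control (log2 fold change 0.45 with SE 0.0823 and adjusted p = 2.18e-05). Other models on the same strand share 7.94% of the exonic bases of HOXB3, 17.1% of those of HOXB4 and 16.6% of those of HOXB6. HOXB7 and HOXB8 were not called, with 32.8 ± 2.24 CPM in siBRG1 and 30.1 ± 2.26 CPM in control for HOXB7 and log2 fold changes of 0.12 and 0.13. HOXB1, the most anterior gene of the cluster, had 1 count over all 6 libraries and was not tested.

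The HOXC cluster lies on chromosome 12, on the plus strand, from HOXC13 (chr12:53938765-53946544) to HOXC4 (chr12:54016931-54056030). Its sum was 88.1, 74.3 and 79.3 CPM in siBRG1 and 90.4, 97.2 and 93.2 CPM in control. HOXC8, at chr12:54009106-54012362, a gene of thoracic identity, measured 8.60, 9.25 and 9.49 CPM in the siBRG1 libraries and 16.3, 16.8 and 15.5 CPM in the controls. The siBRG1 libraries lay together below all controls (log2 fold change -0.83 with SE 0.101 and adjusted p = 2.26e-08). HOXC9, at chr12:53994895-54003337, known for setting thoracic motor neuron identity, had 5.76, 6.04 and 6.27 CPM in the siBRG1 libraries and 8.20, 9.05 and 9.003 CPM in the controls. Again no siBRG1 value reached a control value (log2 fold change -0.54 with SE 0.128 and adjusted p = 0.000474). HOXC13, a posterior gene needed for hair and nail, went the other way with 6.27, 6.82 and 5.18 CPM in the siBRG1 libraries and 3.60, 3.03 and 3.85 CPM in the controls. All siBRG1 libraries were above all controls (log2 fold change 0.80 with SE 0.163 and adjusted p = 8.81e-05).

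HOXC10, at chr12:53985065-53990279, a lumbar gene, was the highest of the cluster per exon length and measured 22.1, 19.05 and 21.3 CPM in the siBRG1 libraries and 18.5, 21.6 and 20.5 CPM in the controls. The groups overlapped and no difference was called (log2 fold change 0.05 with SE 0.0857 and adjusted p = 0.633). HOXC11 and HOXC12 were not called either, with log2 fold changes of 0.06 (SE 0.149) and 0.07 (SE 0.287). HOXC5 had the lowest log2 fold change of all HOX genes, -2.29 (SE 0.509, adjusted p = 0.000226), but with 8 counts in siBRG1 against 129 in control, and 59.9% of its exonic bases are shared with other models on its strand. HOXC4 averaged 10.1 ± 2.10 CPM in siBRG1 and 12.8 ± 0.527 CPM in control and HOXC6 21.1 ± 3.08 CPM in siBRG1 and 24.3 ± 0.644 CPM in control. Both were called lower with overlapping groups, at -0.33 and -0.20, and 17.8% and 15.7% of their exonic bases are shared with other models on their strand. Neither gene was called without siBRG1 replicate 2 or without siBRG1 replicate 3, where HOXC had 3 genes called lower in place of 5. In all, 3 alternatives ended the call of HOXC4 and 7 that of HOXC6.

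The HOXD cluster, on chromosome 2 from HOXD13 (chr2:176092891-176095938) to HOXD1 (chr2:176188579-176190907), was the least expressed, at 13.9, 14.5 and 14.9 CPM in siBRG1 and 7.99, 8.39 and 9.62 CPM in control. HOXD8, at chr2:176129694-176132695, a gene of the trunk, made up most of that sum in siBRG1. In control it was the largest part, at 3.65 ± 0.508 CPM (SD, n = 3), but not most of the sum. It was also the highest of its cluster per exon length. It measured 8.74, 7.996 and 9.80 CPM in the siBRG1 libraries and 3.29, 3.42 and 4.23 CPM in the controls. The lowest siBRG1 library was far above the highest control (log2 fold change 1.28 with SE 0.149 and adjusted p = 1.09e-08), the largest rise of any HOX gene. Its paralog HOXC8 was called lower and HOXB8 was not called. HOXD9, at chr2:176122720-176124937, a gene of limb and trunk, had 3.64, 3.21 and 2.82 CPM in the siBRG1 libraries and 1.77, 2.17 and 2.44 CPM in the controls. The groups did not overlap (log2 fold change 0.61 with SE 0.215 and adjusted p = 0.0125), though the call was lost without siBRG1 replicate 1 (adjusted p = 0.0641), without control replicate 1 (0.0776) and after correction for GC content and length (0.214). HOXD3 and HOXD10 were not called, with 34 and 29 counts in siBRG1. HOXD1, HOXD4, HOXD11, HOXD12 and HOXD13 did not pass the count filter: HOXD12 had 0 counts in all libraries, and the other four between 6 and 9 counts in siBRG1 and between 16 and 45 in control.

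The order of HOX genes by level per exon length was HOXA5, HOXB9, HOXB7, HOXA9 and HOXB2 in control, and HOXB9, HOXB7, HOXA5, HOXB2 and HOXA9 in siBRG1. In control, the order began with HOXA5 at 22.1 ± 0.954, HOXB9 at 21.4 ± 1.52 and HOXB7 at 19.7 ± 1.48 CPM per kb (SD, n = 3). HOXB9 differed from HOXA5, and HOXB7 from HOXB9, by less than the sum of their SDs. HOXA9 followed at 15.8 ± 0.840 in control and fell to 10.8 ± 0.777 CPM per kb in siBRG1. HOXA3 went from rank 13 to rank 23 of the HOX genes, and HOXA10 from rank 14 to rank 6.

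The clusters also transcribe noncoding RNA. Of 23 listed noncoding genes of the clusters, 14 were tested, 5 were called higher and 4 lower, and their median log2 fold change was 0.16. Among all genes tested, 36.1% were higher and 36.5% lower. HOTAIR, a long noncoding RNA of the HOXC cluster known for binding Polycomb proteins, was higher with 6.89 ± 1.60 CPM in siBRG1 and 4.44 ± 0.312 CPM in control (log2 fold change 0.64 with SE 0.158 and adjusted p = 0.000754). HOXA10-AS, an antisense RNA that lies within the span of HOXA9 and overlaps HOXA10 at one end, was lower with 4.68 ± 0.392 CPM in siBRG1 and 7.07 ± 0.327 CPM in control (log2 fold change -0.60 with SE 0.142 and adjusted p = 0.000494), where HOXA9 was lower and HOXA10 higher. HOXA-AS3 was lower (1.57 against 2.83 CPM). HOTAIRM1, a myeloid-associated RNA of the HOXA cluster, was lower with 2.39 ± 0.382 CPM in siBRG1 and 3.30 ± 0.200 CPM in control (adjusted p = 0.0408). HOXB-AS3 of the HOXB cluster (1.44) and HAGLROS (1.74) and HOXD-AS2 (0.69) of the HOXD cluster were higher, as was HOXC-AS1 (1.18), and HOXC-AS3 was lower (-1.14), as log2 fold changes. These 5 genes and HOTAIRM1 were named after their values were seen, and all had group means under 4 CPM. The groups overlapped for HOXB-AS3, and 87.1% of its stranded counts in siBRG1 and 94.6% in control lay on the opposite strand. HAGLROS rested on 33 counts in siBRG1 and 32 in control, HOXC-AS1 on 28 and 40, and HOXC-AS3 on 16 and 116.

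Counts on the strand opposite each HOX gene were compared as well, an addition made after the data had been examined. Of 15 HOX genes with enough such counts, 1 was called higher, 3 lower and 11 were not called, where 18.4% of the 8981 genes tested this way were higher and 29.7% lower. HOXA2 had the largest difference in share of the genes tested. Opposite-strand reads made up 3.39%, 6.25% and 3.57% of its stranded counts in siBRG1 and 33.1%, 35.5% and 31.1% in control, with 6 counts against 323 in all (log2 fold change -4.00, SE 0.421, adjusted p = 7.19e-10). No annotated exon lies opposite HOXA2, and HOTAIRM1, on that strand, ends 88 bases away from it. Over HOXA10 the share was 7.15 ± 1.85% in siBRG1 and 18.2 ± 0.484% in control (SD, n = 3; log2 fold change -0.86, SE 0.186, adjusted p = 0.000211), and 16.4% of its exonic bases have an annotated exon opposite. Over HOXA5, 1 opposite-strand count was found in siBRG1 and 63 in control. HOXD3 was the 1 gene higher, with 65 counts against 97 in the deeper controls and a share of 66.3 ± 9.68% against 39.7 ± 8.45%.

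**Figure D3:**
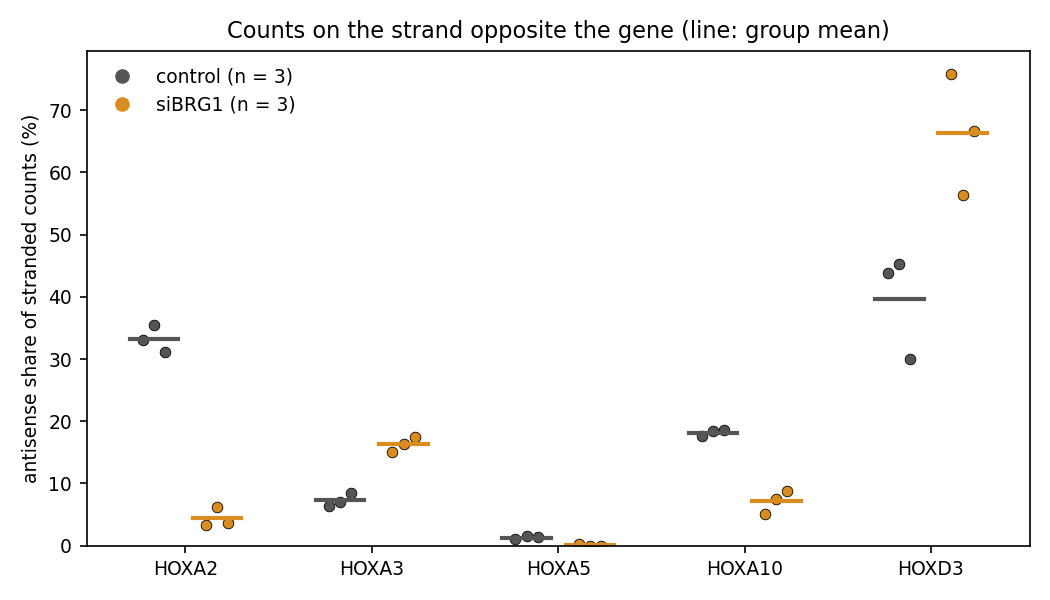
Share of stranded counts that lie on the strand opposite the gene (vertical axis, %) for 5 HOX genes, one point per library, grey for control and orange for siBRG1, lines at the group means. HOXA2 goes from 33.2% in control to 4.404% in siBRG1 and HOXA10 from 18.2% to 7.15%, while HOXD3 lies higher in siBRG1.

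HOX proteins bind DNA together with TALE homeodomain cofactors, the PBX, MEIS and PKNOX proteins. Of 9 such genes 8 were tested, 2 were called higher and 3 lower. For this list and those that follow, 36.1% of all genes tested were higher and 36.5% lower. MEIS3 was higher with 47.1 ± 8.26 CPM in siBRG1 and 25.9 ± 0.512 CPM in control (log2 fold change 0.86 with SE 0.0814 and adjusted p = 4.24e-10). MEIS2, the most abundant MEIS gene in these cells, was lower with 132 ± 2.40 CPM in siBRG1 and 214 ± 9.04 CPM in control (log2 fold change -0.70 with SE 0.0420 and adjusted p = 9.72e-15), and PKNOX1 was lower at -0.24. Of 12 genes of the trithorax and MLL complexes, most of which help place the active histone mark that keeps HOX genes on, 3 were higher and 9 lower with a median of -0.30. ASH2L and DPY30, core subunits shared by these complexes, were higher (0.90 and 0.84), and the methyltransferase KMT2C (-0.63) and the subunit RBBP5 (-0.40) were lower. Other homeobox genes related to the clusters were all but silent: of 10 listed (EVX, CDX, MEOX, GBX and MNX genes), 1 passed the filter, GBX2, at 0.489 ± 0.208 CPM in siBRG1 and 0.511 ± 0.136 CPM in control.

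The snoRNA hosts gave another picture. Of 27 identifiers 23 were tested, 3 were called higher and 17 lower, where 36.1% of all genes tested were higher and 36.5% lower. Among the 1576 other long noncoding genes tested, 18.8% were higher and 33.1% lower, with a median of -0.22. The family's median log2 fold change was -0.61. At least 2-fold, 1 member was higher and 9 were lower, against 10.4% and 11.1% of all genes. The groups did not overlap for the 3 members called higher and the 17 called lower, where 36.7% and 37.6% of all genes tested had such higher and lower values. Summed over the family, the level was 735, 730.5 and 745 CPM in siBRG1 and 1152, 1157 and 1161 CPM in control. Against the HOX genes, whose calls split 11 to 12, the hosts' calls went mostly down, but the families were not tested against each other.

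**Figure D4:**
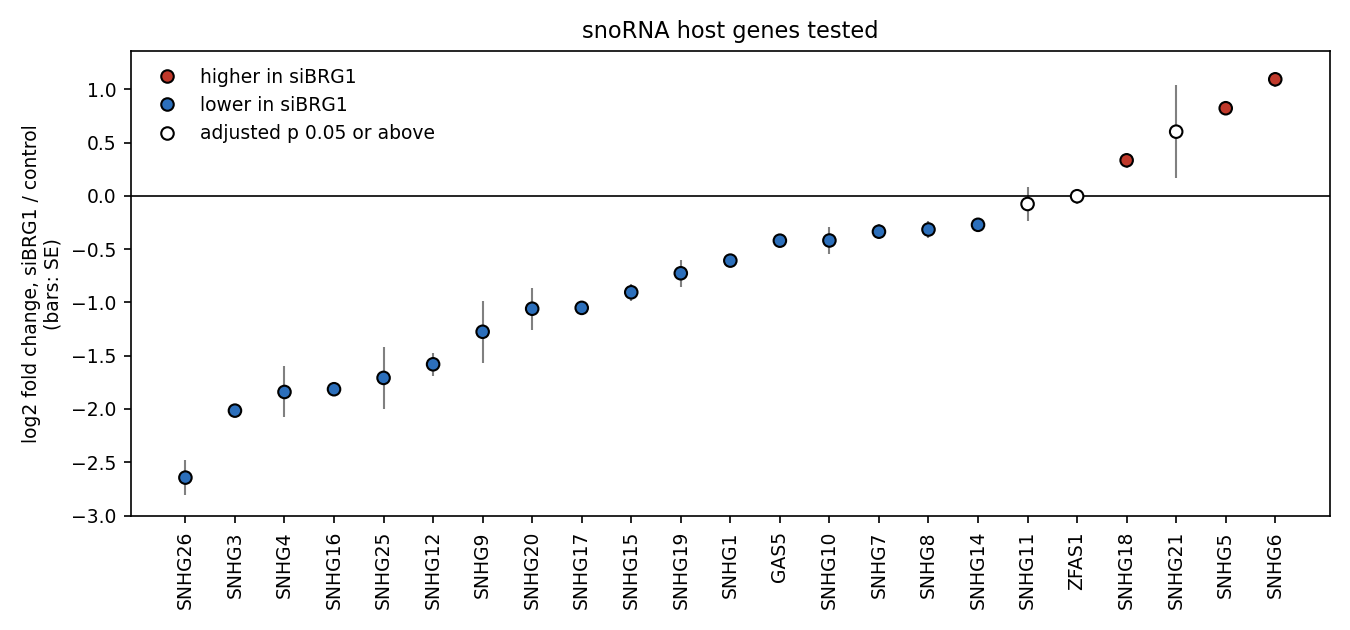
Log2 fold change of siBRG1 over control (vertical axis; bars are SE) for the 23 snoRNA host genes tested, ordered from lowest to highest; blue points are called lower, red higher, open points not called. Members run from -2.64 for SNHG26 to 1.10 for SNHG6, and 17 of the 23 points are blue.

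Spliced host RNAs often begin with a pyrimidine tract, as do the mRNAs of ribosomal proteins, and the start of a few hosts with different calls is shown for that reason. Each line is a window of 30 bases on the gene's strand, 5′ to 3′, from 10 bases before the RefSeq start (GRCh38.p14), with the motifs CTTTT and CTTTC in capitals. The windows are chr17:76557754-76557783 for SNHG16, chr1:28505933-28505962 for SNHG3 and chr20:49278632-49278661 for ZFAS1, on the plus strand, and chr1:28581854-28581883 for SNHG12, chr11:62855866-62855895 for SNHG1 and chr6:85678714-85678743 for SNHG5, on the minus strand.
SNHG16: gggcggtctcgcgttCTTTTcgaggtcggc
SNHG12: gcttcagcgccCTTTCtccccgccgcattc
SNHG3: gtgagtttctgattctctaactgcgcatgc
SNHG1: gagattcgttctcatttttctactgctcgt
ZFAS1: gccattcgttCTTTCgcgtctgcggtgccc
SNHG5: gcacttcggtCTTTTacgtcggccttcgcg
Searched on the gene's strand only, where the motifs cannot overlap each other, 1 or both were in 7 of the 19 tested members searched (36.8%). They were in 7.67% of 35116 windows of all promoters in the RefSeq promoter table. SNHG6, SNHG9, SNHG15 and SNHG25 were tested for expression but had no window in this search. Of the 14 searched members called lower, 5 held one. SNHG16 and SNHG12, called lower, ZFAS1, not called, and SNHG5, called higher, all held one, and SNHG3 and SNHG1 did not. A match is only a string of letters in this window, not a site.

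SNHG16, at chr17:76557766-76565348, a host linked to cell growth in several tumours, was the highest member per exon length in control, at 62.0 ± 1.72 CPM per kb (SD, n = 3). It measured 102, 91.96 and 89.3 CPM in the siBRG1 libraries and 323, 332 and 341 CPM in the controls. All siBRG1 libraries were far below the controls, 3.52-fold in the fit (log2 fold change -1.81 with SE 0.0454 and adjusted p = 9.51e-24). SNHG3, at chr1:28505980-28510892, which hosts H/ACA snoRNAs, had 27.7, 26.1 and 26.04 CPM in the siBRG1 libraries and 105, 108 and 109.8 CPM in the controls. All siBRG1 libraries lay close together, far below every control (log2 fold change -2.02 with SE 0.0561 and adjusted p = 1.27e-22). SNHG12, at chr1:28578538-28583132, close to SNHG3 on chromosome 1 and on the other strand, had 5.97, 6.74 and 5.96 CPM in the siBRG1 libraries and 18.6, 17.8 and 19.4 CPM in the controls. Its siBRG1 libraries again lay far below the controls (log2 fold change -1.58 with SE 0.108 and adjusted p = 1.49e-13). SNHG26, at chr7:22854178-22861579, had the largest fall of the family, with 1.97, 2.04 and 1.49 CPM in the siBRG1 libraries and 10.9, 12.6 and 11.04 CPM in the controls. The highest siBRG1 value was far below the lowest control (log2 fold change -2.64 with SE 0.166 and adjusted p = 2.20e-14).

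GAS5, at chr1:173863900-173868882, named for its rise in growth-arrested cells and known as a target of nonsense-mediated decay, measured 83.8, 85.5 and 87.04 CPM in the siBRG1 libraries and 115, 114 and 115 CPM in the controls. Both groups were tight, and the difference was 1.34-fold (log2 fold change -0.42 with SE 0.0444 and adjusted p = 1.71e-09). SNHG1, at chr11:62851988-62855914, the host of a row of C/D box snoRNAs, had 112, 110.4 and 126 CPM in the siBRG1 libraries and 179, 179 and 171 CPM in the controls. No siBRG1 library reached the lowest control (log2 fold change -0.61 with SE 0.0466 and adjusted p = 2.13e-12). ZFAS1, at chr20:49278178-49295738, a host transcribed from the start of ZNFX1, measured 27.03, 28.5 and 29.6 CPM in the siBRG1 libraries and 28.95, 27.5 and 28.7 CPM in the controls. The groups overlapped fully and the log2 fold change was -0.0026 (SE 0.0692, adjusted p = 0.976). After correction for GC content and length ZFAS1 was called lower (-0.20, adjusted p = 0.00933).

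SNHG5, at chr6:85660950-85678748, a C/D box snoRNA host, was called higher. It measured 138, 151 and 137 CPM in the siBRG1 libraries and 80.6, 82.6 and 77.3 CPM in the controls. Every siBRG1 library was far above every control (log2 fold change 0.82 with SE 0.0468 and adjusted p = 2.43e-15), and SNHG5 was the highest member per exon length in siBRG1, at 50.6 ± 2.76 CPM per kb, and the fifth in control, at 28.6 ± 0.956. SNHG6, on chromosome 8, had the largest rise, with 43.4, 39.7 and 39.5 CPM in the siBRG1 libraries and 19.8, 18.7 and 18.9 CPM in the controls. Again the groups were well apart (log2 fold change 1.10 with SE 0.0693 and adjusted p = 2.77e-14), and counts from both strands gave a larger value of 2.28. SNHG18, at chr5:9546200-9550609, rose less, with 28.5, 31.5 and 28.5 CPM in the siBRG1 libraries and 23.1, 23.04 and 24.05 CPM in the controls. The lowest siBRG1 library was still above the highest control (log2 fold change 0.33 with SE 0.0718 and adjusted p = 0.000154).

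**Figure D5:**
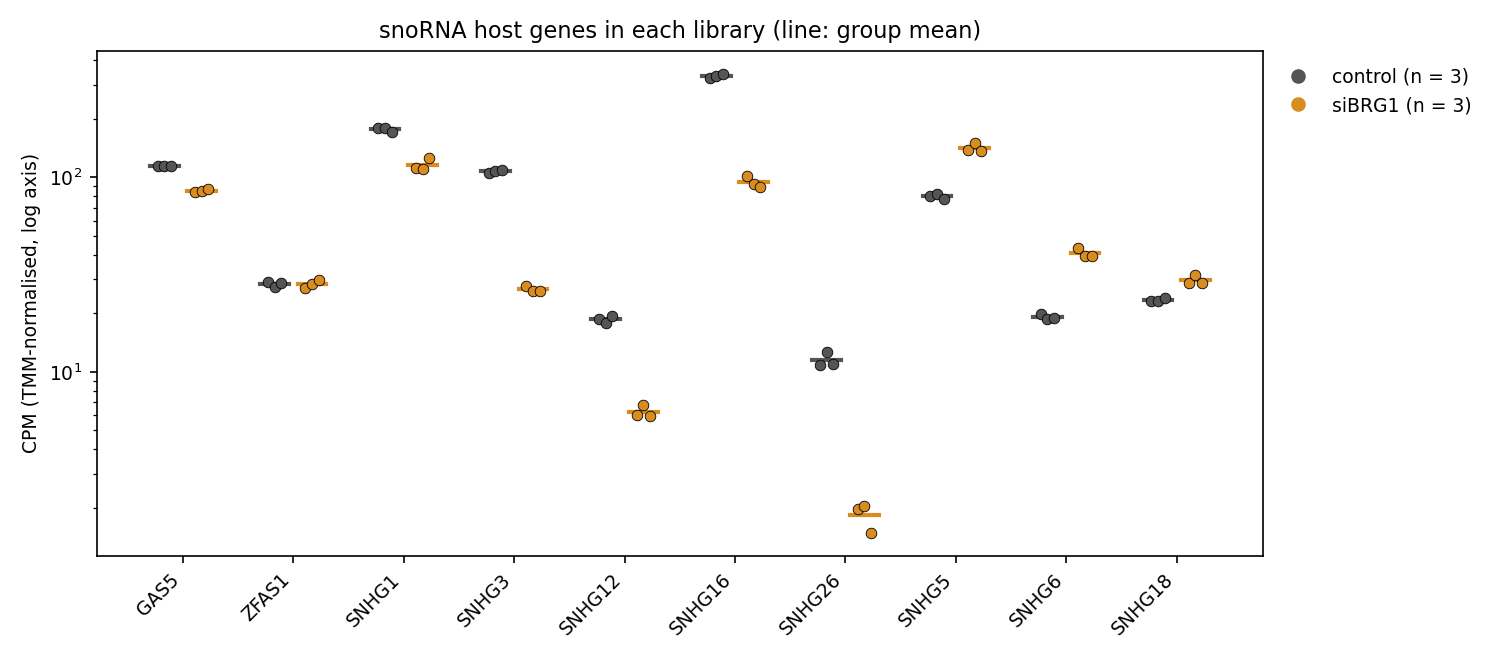
Level of 10 snoRNA host genes in each library (points; CPM on a log axis) with group means as lines, grey for control and orange for siBRG1. SNHG3, SNHG12, SNHG16 and SNHG26 lie far lower in siBRG1, ZFAS1 is level, and SNHG5, SNHG6 and SNHG18 lie higher.

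The other members called lower ranged from -1.84 for SNHG4 to -0.27 for SNHG14. They included SNHG25 (-1.71), SNHG9 (-1.28), SNHG20 (-1.06), SNHG17 (-1.05), SNHG15 (-0.90), SNHG19 (-0.73), SNHG10 (-0.42), SNHG7 (-0.34) and SNHG8 (-0.32), as log2 fold changes. Some had few counts: SNHG25 34 in siBRG1 and 363 in control, SNHG9 34 and 270, SNHG4 42 and 493, and SNHG20 131 and 891. Other models on the same strand share 48.6% of the exonic bases of SNHG25 and 23.0% of those of SNHG9. SNHG17 averaged 23.1 ± 1.24 CPM in siBRG1 and 47.9 ± 1.90 CPM in control, and SNHG15 17.5 ± 1.65 CPM in siBRG1 and 32.8 ± 2.09 CPM in control (SD, n = 3). SNHG14, the long transcript of the imprinted Prader-Willi region that runs opposite UBE3A, averaged 52.9 ± 3.91 CPM in siBRG1 and 63.8 ± 2.18 CPM in control. Correction for GC content and length turned SNHG14 to 0.19 (adjusted p = 0.00798) and the short SNHG19 to 0.67 (adjusted p = 7.61e-05), and ended the calls of SNHG25 (-0.16) and SNHG8 (-0.17). SNHG11 and SNHG21 were not called, SNHG21 with 30 counts in siBRG1 and 64 in control. SNHG22, SNHG27 and both SNHG28 identifiers did not pass the count filter, with 4 counts in siBRG1 against 43 in control for SNHG22 and 0 for SNHG27. The share of a host's span that is exonic ran from 9.83% for SNHG14 to 100% for SNHG9, and its rank correlation with the log2 fold change across the 23 members was -0.42 (Pearson's r -0.40), a description over genes that share libraries.

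Counts of the snoRNA genes inside the hosts were far lower in siBRG1 wherever they could be tested, with 2 exceptions. In the gene models used, 24 of the 26 symbols hold 135 snoRNA genes on their strand, SCARNA genes counted among them. Of the 135, 84 lie in SNHG14. The gene models place none in GAS5 or SNHG27, which describes the models and not what these transcripts carry. Of the 135, 41 lie fully under an exon of the host and have 0 counts in every library. Of the rest, 18 were tested: 16 were called lower, 0 higher (none had a positive log2 fold change), and SNORD123 in SNHG18 and SNORD104 in SNHG25 were not called. Over all 135, 156 counts were found in siBRG1 and 12582 in control. SNORA73B inside SNHG3 had 15 counts against 6698, SCARNA13 inside SNHG10 11 against 1923, and the 5 snoRNA genes inside SNHG17 23 against 1653. SNORD12C inside ZFAS1 had 0 counts against 389, while ZFAS1 itself was not called. Per the labels the libraries were made with an mRNA kit. Genes of the type snoRNA were also taken as a whole, those inside the hosts included and SCARNA genes left out. Of 83 tested, 78 were lower and 0 higher in edgeR's test (0 also at an unadjusted p under 0.05). Of 209 sense intronic genes, 150 were lower and 3 higher, where 36.5% of all genes tested were lower and 36.1% higher. Beside these counts stand the shares of reads on no feature given above, and their part in the host results was not tested.

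Hosts outside the SNHG family were called in both directions, where 36.1% of all genes tested were higher and 36.5% lower. Of 336 other genes that hold a snoRNA gene on their strand, 244 were tested, 74 were higher and 119 lower, with a median of -0.14. Of these, 222 were protein-coding, with 71 higher and 104 lower and a median of -0.10, and 16 were long noncoding genes, with 3 higher and 10 lower. Among 47 listed hosts, protein-coding but for the pseudogene CCT6P1, 24 were higher and 20 lower, with a median of 0.09, so the listed hosts leaned the other way from the whole class. The ribosomal protein gene RPL30 was higher and averaged 646 ± 26.98 CPM in siBRG1 and 326 ± 6.16 CPM in control (log2 fold change 0.99 with SE 0.0381 and adjusted p = 3.67e-19). EIF4A1, an RNA helicase of translation initiation, and PPAN, a ribosome assembly gene, were lower (-2.48 and -1.40), with 48.6% and 59.8% of their exonic bases shared with other models on their strand. Of the 5 listed noncoding hosts tested, 0 were higher (all 5 had negative log2 fold changes) and 4 lower. DANCR averaged 20.03 ± 2.61 CPM in siBRG1 and 54.9 ± 1.17 CPM in control (log2 fold change -1.46 with SE 0.0733 and adjusted p = 1.58e-16) and MEG8, of the imprinted DLK1 region, 5.30 ± 0.973 CPM in siBRG1 and 30.6 ± 0.789 CPM in control (-2.54).

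The proteins that build snoRNPs and those that destroy host RNA were also listed. Beside both lists, 36.1% of all genes tested were higher and 36.5% lower. Of 18 genes for core snoRNP proteins and their assembly factors, 4 were higher and 13 lower, with a median of -0.40. GAR1, an H/ACA core protein, was lower with 20.7 ± 3.47 CPM in siBRG1 and 55.3 ± 1.48 CPM in control (log2 fold change -1.41 with SE 0.0781 and adjusted p = 1.32e-15), and NOP56, a C/D core protein, with 129.8 ± 3.52 CPM in siBRG1 and 272 ± 8.95 CPM in control (-1.07). PIH1D1 (0.98) and RUVBL2 (0.55), members of the R2TP assembly chaperone, were higher. Of 18 genes of nonsense-mediated decay, 2 were higher and 13 lower, with a median of -0.44. DHX34 (-0.97) and UPF3B (-0.95) were the largest falls. SMG8, of the SMG1 kinase complex, was higher (0.44), and so was NBAS (0.11), whose call 10 alternatives ended.

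The authors' deposited table of the same comparison lists 37 HOX genes, 10 higher and 12 lower at its adjusted p, and 24 genes of the SNHG family, 3 higher and 17 lower. In that table HOXA3 has a log2 fold change of -1.89, HOXA10 of 0.65, HOXD8 of 1.26, SNHG16 of -1.84 and SNHG6 of 1.07. HOXB9, called here, has an adjusted p of 0.0706 in the authors' deposited table. For the 33 HOX genes and 23 hosts tested here, all signs were the same in the authors' deposited table, and values differed by at most 0.0560 and 0.0302.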

How the data were processed

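RNA of 3 siBRG1 and 3 control libraries was made into strand-specific mRNA libraries, per the labels' protocols. The authors deposited raw counts per gene for each library, in unstranded, sense and antisense columns. Per the submitters' processing notes, the tools were STAR, Trim Galore with cutadapt, FastQC and DESeq2, on build GRCh38.p12; versions and the gene annotation are not given in the sources here. A table the authors deposited gives, per the file headers, a mean signal, a log2 fold change and its standard error, a Wald score, and p-values with adjusted forms.

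Of 58336 identifiers, 58216 matched GENCODE 29 without their version, and that release gave symbols, positions and exon lengths. The stranded column with the larger total was used. Entries that name no gene stayed out of library sizes. Counts of same-group libraries differed by more than counting noise (2.64 to 4.55 chi-square units for each degree of freedom). The test was that of edgeR, version 4.0.16, under R 4.3.3 (TMM, filterByExpr, robust quasi-likelihood fit, Benjamini-Hochberg over 15830 genes, common dispersion 0.00171), tested on simulated data. Standard errors were derived from each fold change and its F statistic. Replicate numbers did not pair libraries: same-numbered deviations correlated at -0.0126, 0.0218 and 0.00874.

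Members and lists were chosen with earlier results of these data known. Values in every library are given for the highest member per exon length of each HOX cluster, for up to 2 rises and 2 falls of each cluster with a mean of at least 50 counts, for GAS5, ZFAS1 and the 3 highest hosts per exon length over all libraries, and for up to 4 rises and 4 falls of hosts with a mean of at least 100 counts. Of each other list up to 2 members per direction are named. Alternatives were other scalings, count filters, unstranded counts, removal of GC and length trends, a replicate block, thinning to the smallest library, DESeq2 1.42.0 and leaving out each library. Sequences came from GENCODE 29 transcripts and the RefSeq promoter table. Some items the rule names are not reported here.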

Additional observations from a re-analysis of the deposited data

How the results depend on the processing

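Over 16 alternatives, the HOX genes gave 524 comparisons with the reported value: 468 kept direction and side of the threshold, 35 lost the call, 7 gained one and 14 changed sign. The hosts gave 366: 354, 2, 1 and 9. Removing GC and length trends left 6 HOX genes higher (3 in HOXB, 1 in HOXD) and gave 5 hosts higher. Asking for at least 2-fold gave 1 HOX gene higher and 3 lower, and 1 host higher and 9 lower. Unstranded counts gave 2 HOXA genes higher, and thinning 4 HOXA genes lower. HOXC had 3 genes lower with library totals only and with at least 50 counts in 3 libraries, and 3 to 5 (without siBRG1 replicate 2 or 3 the lowest) when 1 library was left out. HOXD had 1 to 2 higher when 1 library was left out (1 without siBRG1 replicate 1 or control replicate 1).

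Most sign changes were of members near 0. Without GC and length trends, log2 fold changes were -0.18 for HOXC12, -0.10 for HOXC11, -0.10 for HOXC10, -0.013 for HOXB7, -0.11 for HOXB8 and -0.028 for HOXB9, and, called, 0.19 for SNHG14 and 0.67 for SNHG19. Unstranded counts gave 0.016 for HOXA6, 0.68 for HOXA7 (called) and 0.049 for ZFAS1. Library totals gave 0.0019 for HOXA11, 0.00075 for SNHG11 and 0.073 for ZFAS1. ZFAS1 was 0.012 with the stricter filter and 0.021 after thinning. With 1 library left out, values ran from -0.21 to 0.043 for HOXA11, -0.14 to 0.33 for HOXC12, -0.027 to 0.17 for HOXC11, -0.032 to 0.11 for HOXC10, -0.32 to 0.11 for SNHG11 and -0.039 to 0.034 for ZFAS1. The cause of these changes was not tested. The replicate block kept 11 HOX genes higher and 12 lower and 3 and 17 hosts. No count filter moved the median of all genes to -0.30, and the other alternatives moved it by less than 0.1. The siBRG1 libraries were the shallower, which limits genes of few counts such as HOXC5 and HOXD3.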
